A study of Mus musculus with 6 samples.

Results

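A set of 10 genes of the vessel wall was followed in the ear skin of newborn mice after an endothelial knockout of Kdr. They are Pdgfrb, Notch3, Mcam, Cspg4, Vtn, Rgs5, Kcnj8, Abcc9 and Higd1b, 9 genes widely used as markers of pericytes, together with Ndufa4l2. They are 10 of the 18404 genes in the deposited count table, taken by gene symbol, and all 10 had enough reads to be among the 14920 genes tested. Ndufa4l2 was chosen because of its measured values in this same comparison, so those values are given as a description without a test. The other 9, called identity genes here, were taken as known markers, with earlier results of these data known.

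Pericytes sit on the outside of capillaries and small veins, share the basement membrane with the endothelium and, with smooth muscle cells, form the mural layer of the vessel. Endothelial cells recruit them with PDGF-B, which binds PDGFRB on the pericyte, and instruct mural cells through Notch ligands that engage NOTCH3. NDUFA4L2 is a mitochondrial protein related to NDUFA4, a subunit of cytochrome c oxidase, and its gene is a known target of the hypoxia-inducible factor HIF-1 that is also strongly expressed in pericytes of several tissues.

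Poly(A) RNA from whole ear skin was sequenced in 6 mouse libraries, 3 labelled Control and 3 from pups with an endothelium-specific knockout of Kdr (ecko), the gene of the VEGF receptor VEGFR2. Both groups were collected on postnatal day 3 and both are recorded as tamoxifen treated, with injections from postnatal day 1 at 60 µg per day. The series name gives 48 h. The control pups were littermates, but their genotype, the strain and the Cre driver are not given in the sources used here. The labels do not say whether each library is 1 animal, so the p-values reflect only how far these samples spread.

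The knockout showed in the target gene. Kdr had 1599, 1860 and 1337 counts in the control libraries and 348, 431 and 370 in the ecko libraries, with a log2 fold change of -2.05 ± 0.12 (SE, edgeR adjusted p of 0.0002). It was the only gene of 14920 past the edgeR threshold, an adjusted p of 0.05. Libraries held 16987130 to 17979182 counts. Each group held 1 library almost without reads of Y-linked genes, namely control 2 with 14 such counts and ecko 3 with 15, where the other 4 had 3905 to 4593. Control 3 stood apart from the other libraries by the chi-square per gene (13.24 to 19.76 in its pairs, 4.18 to 11.47 in the others), and its summed skeletal muscle markers were the lowest, 5405 CPM (counts scaled to library size) against 7460 to 9630 in the other 5.

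The coding sequence of Ndufa4l2 is shown beside that of Ndufa4, its abundant relative, because a value for Ndufa4l2 rests on reads that can be told from the relative's. Both are from GENCODE M21 on GRCm38, 5′ to 3′ from start to stop codon, with the longest run of bases that both share in capitals.
Ndufa4l2: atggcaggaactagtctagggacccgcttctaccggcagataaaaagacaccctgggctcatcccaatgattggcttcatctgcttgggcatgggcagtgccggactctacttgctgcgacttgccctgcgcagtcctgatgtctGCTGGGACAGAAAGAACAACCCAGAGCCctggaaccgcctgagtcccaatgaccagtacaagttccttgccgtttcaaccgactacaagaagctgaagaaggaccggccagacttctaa
Ndufa4: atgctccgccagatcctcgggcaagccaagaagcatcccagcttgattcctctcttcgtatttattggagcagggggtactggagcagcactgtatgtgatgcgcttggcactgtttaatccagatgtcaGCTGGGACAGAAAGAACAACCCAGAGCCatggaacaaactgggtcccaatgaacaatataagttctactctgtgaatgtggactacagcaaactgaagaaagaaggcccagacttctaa
The Ndufa4l2 sequence has 264 bases and the Ndufa4 sequence 249. They are identical at 68.6% of aligned positions, with the 23 gap columns of 268 left out. The longest shared run is 28 bases, also when whole transcripts are compared. Both genes had exactly whole values (a tolerance of 0) in 6 of 6 libraries. The part of shared reads in the counts was not tested further. Ndufa4l2 (chromosome 10, 127509274 to 127517154) also shares 32 exon bases, 3.4% of its exon length, with Shmt2 on the opposite strand. Whether the authors counted by strand is not given in the sources used here. Shmt2 had 1260, 1127 and 1259 counts in control and 957, 1170 and 1149 in ecko, and its groups overlapped.

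The 9 identity genes had estimates near 0 in ecko against control skin, and Ndufa4l2 was higher in every ecko library. The identity genes had log2 fold changes from -0.17 (Vtn) to 0.32 (Higd1b), with a median of -0.02, 4 above and 5 below 0. Ndufa4l2 had 0.67. All 9 identity genes had overlapping groups, and the ecko libraries of Ndufa4l2 were all above the controls. Of all genes tested, 7.55% were above every control in all ecko libraries and 8.11% below. By edgeR 0 of the 10 members passed the adjusted threshold, against 0.00670% of all genes tested. Limma-voom also called 0 of 10 (again 0.00670% of all genes), and 1 of 10, Ndufa4l2, had an unadjusted edgeR p under 0.05, as 9.01% of all genes had (4.92% higher in ecko and 4.10% lower). DESeq2 called Ndufa4l2 alone of the 10, where it called 0.757% of all genes. Nothing is read from that call, since the gene was chosen on this contrast.

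**Figure D1:**
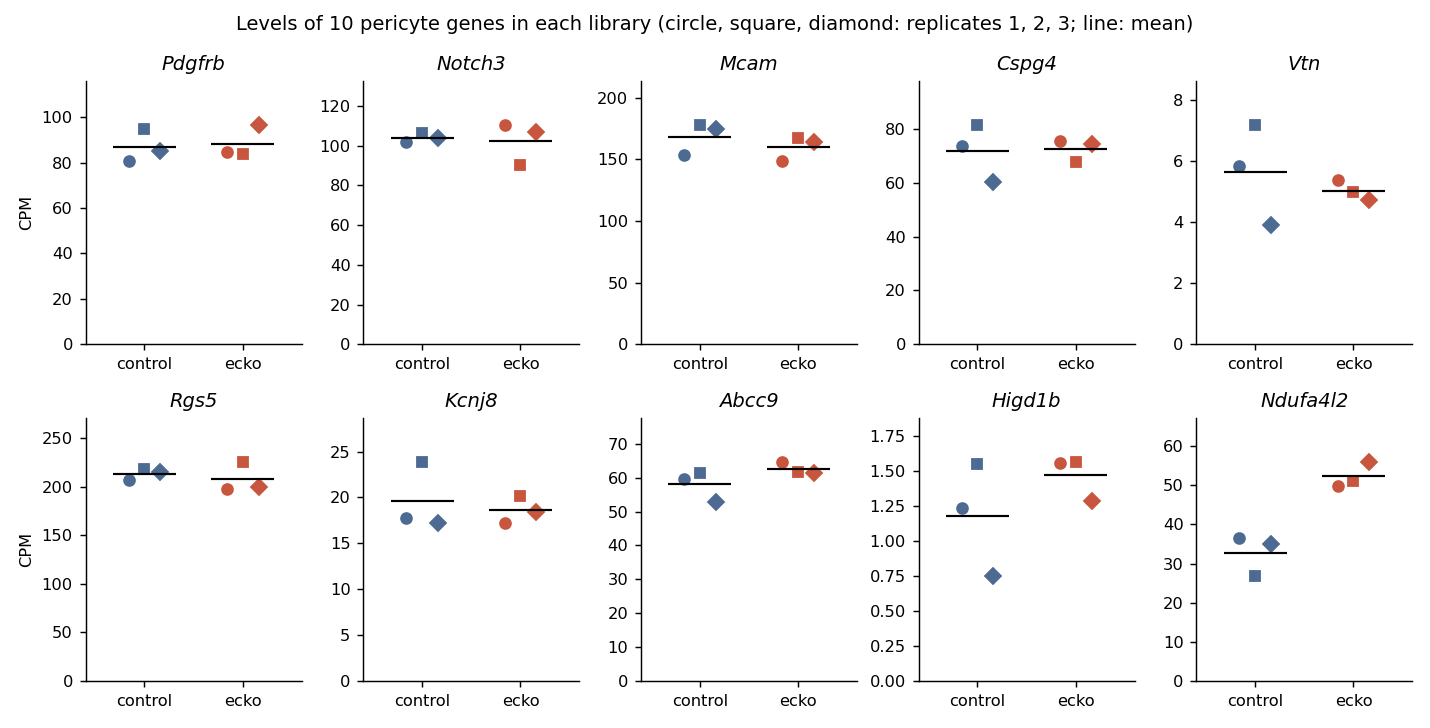
CPM (vertical axes, each from 0) of each of the 10 genes in the 3 control and 3 ecko libraries, 1 point per library (circle, square and diamond for replicates 1, 2 and 3), with a line at each group mean. Points of the groups overlap for the 9 identity genes, and the 3 ecko points of Ndufa4l2 (49.7 to 56.0 CPM) lie above its 3 control points (26.7 to 36.6 CPM).

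Pdgfrb (chromosome 18, 61045127 to 61085067), the receptor through which endothelial PDGF-B recruits pericytes, had 1438, 1716 and 1473 counts in the control libraries and 1521, 1493 and 1652 in the ecko libraries. Control 1 was the lowest of the 6 libraries, also after scaling, and ecko 3 was then the highest, just above control 2. Scaled to library size the means were 86.9 ± 7.27 and 88.3 ± 7.21 CPM (SD, n = 3), and the log2 fold change was 0.02 ± 0.08 (SE, edgeR adjusted p of 0.939). The 95% interval of -0.16 to 0.20 corresponds to 0.896 to 1.15 of the control level, with no adjustment for the number of genes.

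Notch3 (chromosome 17, 32120820 to 32166896), the Notch receptor of mural cells, had 1811, 1922 and 1805 counts in control and 1986, 1610 and 1826 in ecko. The ecko libraries took both the highest and the lowest place and the controls lay between. The means were 104 ± 2.28 and 103 ± 10.8 CPM (SD, n = 3), with a log2 fold change of -0.02 ± 0.08 (SE), an interval of -0.20 to 0.15 and an edgeR adjusted p of 0.940.

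Genes on the signalling side of these receptors were counted from lists of their own. Pdgfb, the endothelial ligand, had 876, 867 and 723 counts in control and 778, 761 and 761 in ecko (log2 fold change -0.09 ± 0.08 SE, adjusted p 0.749 by edgeR). The other PDGF ligands Pdgfa, Pdgfc and Pdgfd had log2 fold changes of 0.04, 0.07 and -0.06. Pdgfra, the receptor of dermal fibroblasts, had 0.15. All 5 had overlapping groups.

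Among Notch genes, Dll4, an endothelial ligand known to depend on VEGF signalling, had 178, 245 and 203 counts in control and 126, 149 and 163 in ecko. Each ecko library was below every control library, at 8.30 ± 1.26 against 11.8 ± 1.78 CPM (SD, n = 3), and the log2 fold change of -0.50 ± 0.16 (SE) did not pass (edgeR adjusted p of 0.447). Jag1, the ligand for mural NOTCH3 on endothelium, had 0.02, and Notch1 -0.09. The Notch target Heyl, a mural cell gene, had 0.07 and the target Hey1 had -0.17, all with overlapping groups. The angiopoietin genes gave 0.14 for Angpt1, which pericytes secrete, 0.01 for Angpt2, and -0.11 for Tek, the receptor of both.

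In the whole list of 37 signals between endothelium and pericytes, 17 were higher and 20 lower, with a median of -0.03 against -0.0020 over all genes tested. Of the 37, 4 (Dll4, Tie1, Notch4 and Apln) were below every control library in all ecko libraries, where 8.11% of all genes were. Of the 37, 0 were above every control, where 7.55% of all genes were. By edgeR, limma-voom and DESeq2, 0 of them passed, and 4 had an unadjusted p under 0.05, all lower, where 4.10% of all genes were.

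Mcam (chromosome 9, 44134658 to 44142727) encodes CD146, an adhesion molecule of pericytes, smooth muscle and endothelium. It had 2726, 3214 and 3020 counts in control and 2666, 2976 and 2798 in ecko. The ecko values lay within or just under the control range, at 168 ± 13.3 against 159.6 ± 9.90 CPM (SD, n = 3), and the log2 fold change was -0.08 ± 0.07 (SE, interval -0.24 to 0.09, edgeR adjusted p of 0.770).

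Cspg4 (chromosome 9, 56865104 to 56899870) encodes the NG2 proteoglycan of the pericyte surface, which glial precursors and some other skin cells also carry. Its counts were 1308, 1472 and 1046 in control and 1358, 1207 and 1271 in ecko. The controls spanned more than the ecko libraries, with control 2 the highest and control 3 the lowest of all 6. Means of 71.8 ± 10.7 and 72.5 ± 4.25 CPM (SD, n = 3) gave a log2 fold change of 0.01 ± 0.10 (SE), an interval of -0.22 to 0.25 and an edgeR adjusted p of 0.972.

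Vtn (chromosome 11, 78499120 to 78502325) encodes vitronectin, a matrix and plasma protein made by liver and by pericytes of the brain. It had 104, 130 and 68 counts in control and 97, 89 and 81 in ecko. All 3 ecko values lay inside the control range, at 5.65 ± 1.65 against 5.04 ± 0.333 CPM (SD, n = 3). The log2 fold change was -0.17 ± 0.21 (SE, edgeR adjusted p of 0.828), and at this depth the interval runs from -0.63 to 0.30. Hepatocyte markers, a source of Vtn outside the vessel wall, summed to 1.94 to 3.86 CPM in control and 2.34 to 3.14 in ecko, and 7 of the 9 measured had under 3 counts on average.

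Rgs5 (chromosome 1, 169655501 to 169695813) encodes a regulator that shortens G protein signalling and is among the most specific pericyte markers. It had 3682, 3938 and 3736 counts in control and 3547, 4029 and 3423 in ecko. Ecko libraries were again both highest and lowest. The means of 213 ± 5.74 and 208 ± 15.7 CPM (SD, n = 3) gave a log2 fold change of -0.04 ± 0.07 (SE), an interval of -0.19 to 0.11 and an edgeR adjusted p of 0.882. Rgs4, a relative that mural cells also express, had 111, 80 and 74 counts in control and 86, 74 and 88 in ecko.

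Kcnj8 and Abcc9 lie side by side on chromosome 6 (142564837 to 142571614 and 142587862 to 142702766) and encode the pore Kir6.1 and the sulphonylurea receptor SUR2 of the vascular ATP-sensitive potassium channel. Kcnj8 had 316, 432 and 298 counts in control and 310, 359 and 314 in ecko, with all 3 ecko values inside the control range. Its means were 19.6 ± 3.73 and 18.6 ± 1.45 CPM (SD, n = 3), and the log2 fold change was -0.08 ± 0.14 (SE, interval -0.38 to 0.22, edgeR adjusted p of 0.879).

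Abcc9 had 1063, 1110 and 917 counts in control and 1164, 1102 and 1049 in ecko. Control 3 was lowest, and after scaling ecko 3 (61.4 CPM) lay just under control 2 (also 61.4 CPM), so that the groups overlapped. The means were 58.0 ± 4.53 and 62.6 ± 1.86 CPM (SD, n = 3), and the log2 fold change was 0.11 ± 0.08 (SE, interval -0.06 to 0.28, edgeR adjusted p of 0.676). Both channel genes thus had intervals that hold 0, with estimates of opposite sign. Abcc9 shares 158 exon bases, 1.9% of its exon length, with an overlapping gene on the other strand, 5330439B14Rik. The pancreatic and muscle subunits were scarcer: Kcnj11 had 51 to 106 counts per library, and Abcc8 1 to 8 counts, too few to be tested.

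Higd1b (chromosome 11, 102835761 to 102844141) encodes a small mitochondrial protein of the hypoxia-inducible gene domain family and is a marker of capillary pericytes. It was the scarcest of the 10, with 22, 28 and 13 counts in control and 28, 28 and 22 in ecko. Control 3 was low and the other 5 libraries were alike, and the groups overlapped, at 1.18 ± 0.403 and 1.47 ± 0.160 CPM (SD, n = 3). The log2 fold change of 0.32 ± 0.30 (SE, edgeR adjusted p of 0.760) has an interval of -0.34 to 0.97, which at this depth includes the estimate for Ndufa4l2. It moved from 0.08 without control 3 to 0.56 without control 2.

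Ndufa4l2 had 651, 483 and 608 counts in control and 893, 911 and 958 in ecko, or 36.6, 26.7 and 35.1 CPM against 49.7, 51.1 and 56.0 CPM. The lowest ecko library was above the highest control, and within the controls the library control 2 was the low one. The means were 32.8 ± 5.31 and 52.3 ± 3.34 CPM (SD, n = 3), a fold of 1.59 and a log2 fold change of 0.67 ± 0.11 (SE), the values on which it was chosen. Without control 2 the log2 fold change was 0.54, and without control 1 it was 0.76. Among the 4 libraries with Y-linked reads it was 0.49. The remaining 2, control 2 and ecko 3, are 1 library per group and hold the lowest and the highest Ndufa4l2 level of the 6.

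**Figure D2:**
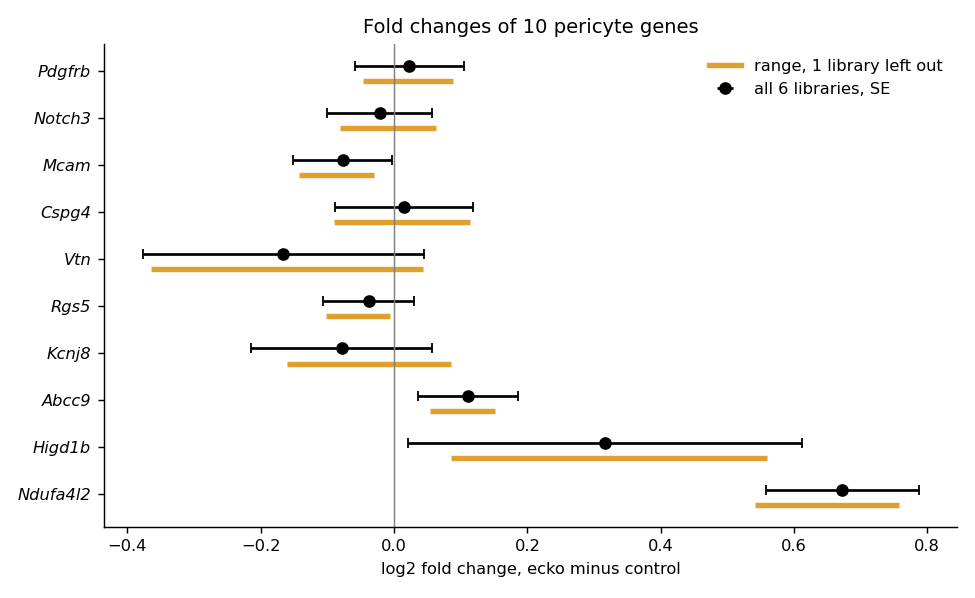
Log2 fold change (horizontal axis, ecko minus control) of the 10 genes from all 6 libraries with SE (black), and the range when 1 library is left out (orange). The 9 identity genes lie between -0.17 and 0.32. The leave-one-out ranges of Pdgfrb, Notch3, Cspg4, Vtn and Kcnj8 cross 0, and those of Rgs5, Abcc9, Higd1b and Mcam do not. The range of Ndufa4l2, the gene chosen on this contrast, is 0.54 to 0.76.

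Ndufa4l2 was then set against the identity genes within each library, by subtracting their mean log2 CPM from its own. The difference was -0.05, -0.70 and 0.04 in the control libraries and 0.35, 0.39 and 0.54 in the ecko libraries. Every ecko library was above every control, and the group means were -0.24 ± 0.40 and 0.43 ± 0.10 (SD, n = 3). The identity mean itself was 5.25, 5.45 and 5.10 in control and 5.29, 5.29 and 5.27 in ecko, which is a difference of 0.02 between the group means.

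The gap between the groups, 0.66 on the log2 scale or 1.58-fold, includes control 2, which had the highest CPM of the controls in 9 of 9 identity genes and the lowest in Ndufa4l2. Without control 2 the gap was 0.43, and without control 3 it was 0.80. In the 4 libraries with Y-linked reads it was 0.38. With only Rgs5, Kcnj8, Abcc9 and Higd1b as the identity genes it was 0.59. Taken gene by gene, the log2 level of Ndufa4l2 minus that of the identity gene was above every control in all ecko libraries for 8 of 9 genes, with gaps from 0.57 (Abcc9) to 0.80 (Vtn). For Higd1b the groups overlapped, with a gap of 0.34. As Ndufa4l2 was chosen on its contrast, these gaps describe the libraries and carry no test. In whole skin, a change in the number of cells of a type and a change in RNA per cell cannot be told apart.

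**Figure D3:**
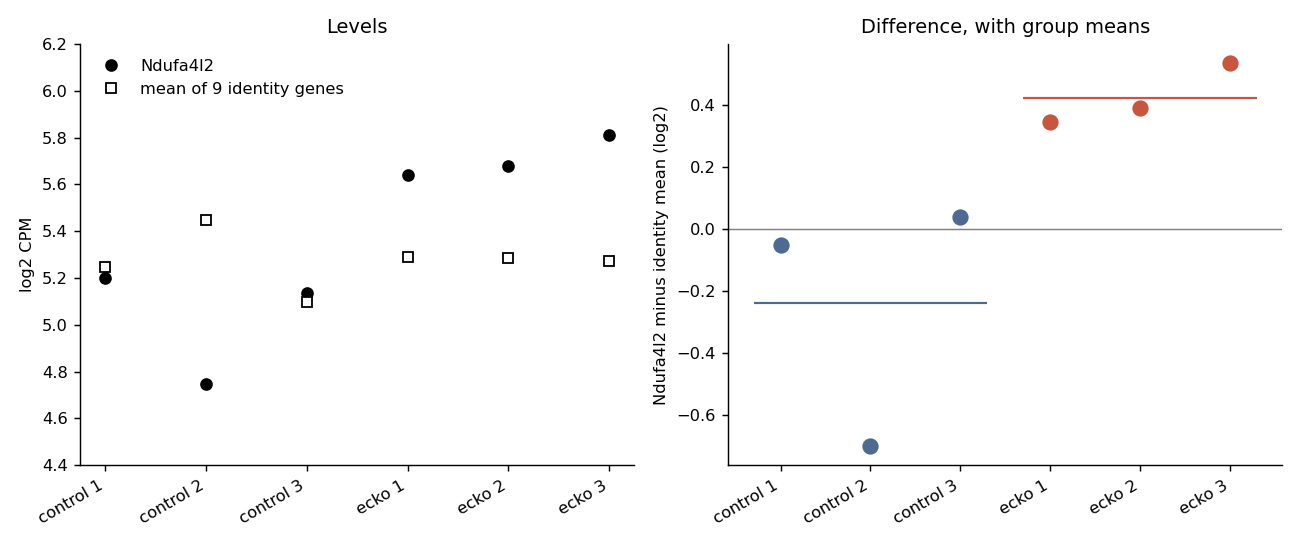
Left, log2 CPM (vertical axis) of Ndufa4l2 (filled circles) and of the mean of the 9 identity genes (open squares) in each of the 6 libraries, and right, their difference with a line at each group mean. The circles of the ecko libraries lie at 5.64 to 5.81 and their squares at 5.27 to 5.29, and control 2 has the highest square (5.45) and the lowest circle (4.75). CPM is not scaled by gene length here, so circles and squares are compared between libraries and not with each other.

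Levels of different genes are compared only per length, as CPM per kilobase of exon, with the exons of the basic annotation. In the control libraries Mcam had 56.3 ± 4.44, Rgs5 46.9 ± 1.26 and Ndufa4l2 35.1 ± 5.68 (SD, n = 3), and these 3 did not overlap in range. In the ecko libraries Ndufa4l2 had 56.0 ± 3.57, with a range that overlapped that of Mcam (53.4 ± 3.31) and lay above that of Rgs5 (45.7 ± 3.46). Pdgfrb (15.9 ± 1.33 in control) and Notch3 (13.0 ± 0.285) followed. Below them Cspg4 (8.84 ± 1.32), Kcnj8 (7.70 ± 1.46) and Abcc9 (6.93 ± 0.541) could not be ordered beyond their spread, except that the lowest Cspg4 control was above the highest Abcc9 control. Vtn had 3.24 ± 0.943 and Higd1b 1.39 ± 0.476. The order of the 9 identity genes in ecko was the same but for Kcnj8 and Abcc9, which changed places at 7.29 ± 0.570 and 7.48 ± 0.222. The order depended on the annotated length. With the exons of all annotated transcripts, Ndufa4l2 measures 1.095 in place of 0.934 kilobases and had 29.9 ± 4.85 in control and 47.7 ± 3.05 in ecko. Its ecko range of 45.4 to 51.2 then overlapped both Mcam (44.3 to 49.8) and Rgs5 (43.4 to 49.7), while its control range stayed below theirs. Mcam and Rgs5 then overlapped in control too, and Cspg4, at 6.01 ± 0.895 in control, came below Kcnj8 and Abcc9.

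Across the 6 libraries the identity genes were not all correlated in one direction. Of their 36 pairs, the correlation of log2 CPM ran from -0.76 (Rgs5 with Notch3) to 0.95 (Abcc9 with Higd1b). With Ndufa4l2 it ran from -0.52 (Mcam) to 0.39 (Abcc9). These are Pearson coefficients over 6 libraries that share their scaling, given as descriptions. The genes most like Ndufa4l2, among 12360 genes of at least 5 CPM on average, were Shisa5 (r = 0.998), Ccar2 (0.990), Tmem60 (0.984), Dlgap5 (0.982) and Fam122b (0.975). Their own log2 fold changes were 0.05 to 0.20. Among those most like the identity mean were Dnm3 (0.986), Klf15 (0.981), Tmem179b (0.978) and Art3 (0.977), the last of which is itself in the list of further pericyte genes. All of these were picked as the highest r among 12360 or 12353 genes over only 6 libraries, so nothing is read from which genes they are.

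The tested relatives of Ndufa4l2 and Higd1b had estimates just below 0. Ndufa4 (chromosome 6, 11900372 to 11907450) had 1725, 1758 and 1781 counts in control and 1616, 1812 and 1526 in ecko, or 99.0 ± 3.22 and 93.6 ± 6.94 CPM (SD, n = 3), and the log2 fold change was -0.08 ± 0.07 (SE, edgeR adjusted p of 0.734). The log2 level of Ndufa4l2 minus that of Ndufa4 was -1.40, -1.86 and -1.55 in control and -0.85, -0.99 and -0.67 in ecko. Each ecko library was above each control, with a gap of 0.76 between the means. The third paralog, AA467197, had 1 to 6 counts and was not tested. Higd1a and Higd2a, relatives of Higd1b, had log2 fold changes of -0.01 and -0.07, and Higd1c was not analysed here.

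Genes of the respiratory complexes with which these proteins are associated mostly had estimates below 0. Of 16 cytochrome c oxidase subunits, 2 were higher and 14 lower, with a median of -0.08, and 2 were below every control library in all ecko libraries. Cox4i1, the common isoform of subunit 4 and one of those below every control, had -0.08 and Cox4i2, its hypoxia-associated isoform and a pericyte marker, -0.18. Of 36 complex I subunits, 1 was higher and 35 lower, with a median of -0.11, and 15 were below every control. These shares stand beside 8.11% of all genes and a median of -0.0020. By edgeR, limma-voom and DESeq2, 0 genes of either list passed, and 2 of the oxidase and 5 of the complex I genes had an unadjusted p under 0.05 in edgeR, all lower, where 4.10% of all genes were.

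Genes known to be induced by hypoxia, of which Ndufa4l2 is one, were counted without it. Of 39, 30 were higher and 9 lower, with a median of 0.07, and 4 (Egln3, Car12, Hilpda and Loxl2) were above every control library in all ecko libraries, against 7.55% of all genes. Egln3, an oxygen-sensing hydroxylase that HIF itself induces, had 1051, 800 and 790 counts in control and 1105, 1136 and 1074 in ecko. That is 49.6 ± 8.20 against 62.7 ± 1.11 CPM (SD, n = 3), and the log2 fold change was 0.34 ± 0.11 (SE), which did not pass (edgeR adjusted p of 0.455).

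Other genes of the hypoxia list had overlapping groups. Slc2a1, a glucose transporter, had 0.29, Vegfa 0.12, Pdk1, a brake on mitochondrial pyruvate use, 0.09 and Car9, a carbonic anhydrase with only 9 to 21 counts, 0.07. Ankrd37 had 84, 47 and 23 counts in control and 52, 80 and 80 in ecko, a log2 fold change of 0.47 ± 0.40 (SE). In Vegfa, Slc2a1 and Ankrd37 control 3, the library with the fewest skeletal muscle reads, was the lowest of the 6. With the skeletal muscle marker mean as a covariate the median of the 39 genes was 0.074, against 0.073 without it. The part of muscle content in the values of these single genes was not tested. Of 10 HIF subunit and regulator genes, Egln3 among them, 4 were higher and 6 lower, with a median of -0.03. In all ecko libraries 1 of the 10 was above every control and 2 were below, where 7.55% and 8.11% of all genes were. An unadjusted edgeR p under 0.05 was held by 1 on the higher side and 2 on the lower, against 4.92% and 4.10% of all genes. By edgeR, limma-voom and DESeq2, 0 of the 10 passed. Hif1a had -0.19 (groups overlapping), and Epas1, the HIF-2 gene prominent in vessel cells, had -0.18, with 1791, 2106 and 1752 counts in control and 1786, 1588 and 1568 in ecko. After scaling, Epas1 was below every control in all ecko libraries (edgeR adjusted p of 0.532). By edgeR, limma-voom and DESeq2, 0 of the 39 hypoxia genes passed, and 4 had an unadjusted p under 0.05, all higher, where 4.92% of all genes were.

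**Figure D4:**
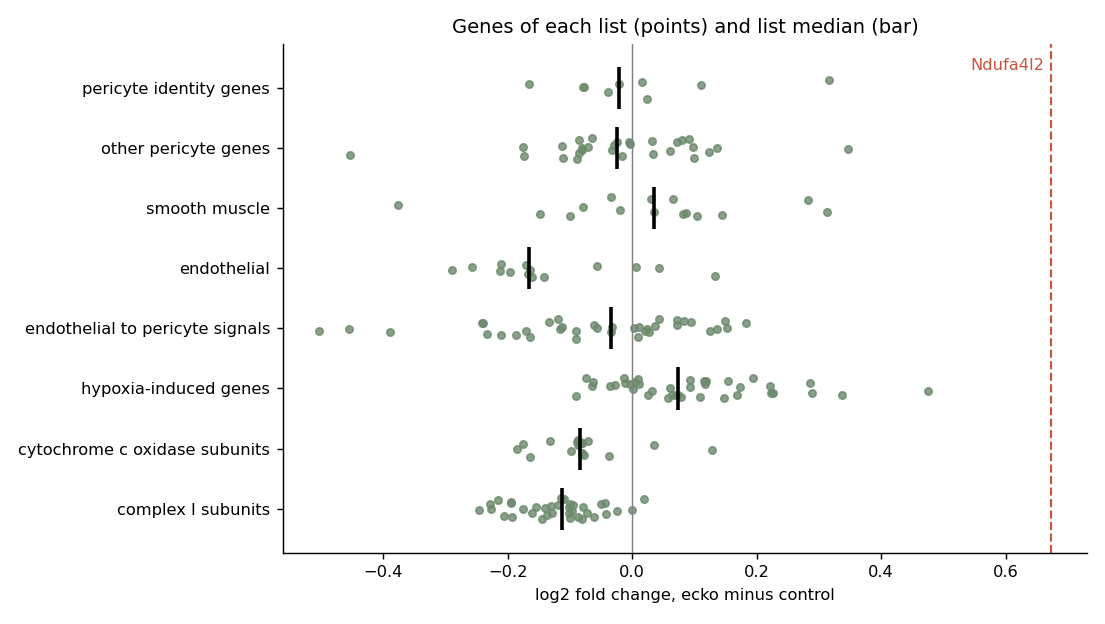
Log2 fold change (horizontal axis, ecko minus control) of every tested gene in 8 lists, 1 point per gene, with the list median as a bar and Ndufa4l2 as a dashed line at 0.67. No point reaches the Ndufa4l2 line, and the medians run from -0.17 (endothelial) to 0.07 (hypoxia-induced genes).

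Further pericyte genes, none of them members, also had estimates near 0. Of 29 tested, 11 were higher and 18 lower, with a median of -0.02, and 0 had groups that did not overlap. Over all genes tested the median was -0.0020, with 7.55% above and 8.11% below every control library in all ecko libraries. Anpep, the aminopeptidase CD13, had -0.02, Tbx18, a mural cell transcription factor, 0.10, and Steap4, a metalloreductase, -0.00. Gucy1a1, a subunit of the nitric oxide receptor, had 0.10 and the endothelin receptor gene Ednra 0.09. Cd248, endosialin, which fibroblasts share, had -0.17, and Foxs1 had -0.45 ± 0.33 (SE) with 21 to 57 counts per library. By edgeR, limma-voom and DESeq2, 0 of the 29 passed. An unadjusted edgeR p under 0.05 was found for 0 of them, against 9.01% of all genes.

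Smooth muscle cells share several identity genes, and their own markers also had overlapping groups. Of 15 tested, 9 were higher and 6 lower (median 0.03), and 0 passed by edgeR, limma-voom or DESeq2 or had an unadjusted p under 0.05. Over all genes tested, 9.01% had such a p in edgeR. In all ecko libraries 7.55% of all genes were above every control library and 8.11% below. Acta2, the smooth muscle actin, had 0.03, Tagln 0.03 and Myh11, the smooth muscle myosin, 0.14. Des, which is counted in the list of further pericyte genes and is also made by skeletal muscle, had 0.08. The summed smooth muscle markers were 1135 to 1476 CPM in control and 1359 to 1475 in ecko.

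Endothelial markers, which share the vessel with these genes, mostly had estimates below 0. Of 14 without Kdr, 3 were higher and 11 lower, with a median of -0.17, and 6 were below every control library in all ecko libraries, against 8.11% of all genes. By edgeR, limma-voom and DESeq2, 0 passed, and 5 had an unadjusted p under 0.05, all lower, against 4.10% of all genes. Their sum was 602 to 730 CPM in control and 563 to 610 in ecko, and the sum of the identity genes was 701 to 773 and 705 to 727. The identity mean minus the endothelial mean, a measure chosen after its values were seen, was 0.14, 0.17 and 0.08 in control and 0.34, 0.27 and 0.22 in ecko on the log2 scale. All ecko libraries were above all controls in it.

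The other tissues of ear skin gave summed marker levels whose ranges overlapped between the groups, though single markers of some leaned one way. Fibroblast markers ran from 19689 to 23001 CPM in control and 20689 to 21368 in ecko, and keratinocyte markers from 18512 to 24499 and 19217 to 22100. Melanocyte markers ran from 359 to 389 and 355 to 399, Schwann cell markers from 241 to 310 and 276 to 301, and macrophage markers from 618 to 711 and 670 to 737. Adipocyte markers ran from 2153 to 2783 in control and 1792 to 2274 in ecko. Of the 9 adipocyte markers 8 were lower, with a median log2 fold change of -0.28, and 3 were below every control library in all ecko libraries. Of them 5 had an unadjusted p under 0.05, and DESeq2 called 1 lower. All 8 macrophage markers were higher (median 0.12, 2 with an unadjusted p under 0.05), as were all 9 Schwann cell markers (median 0.07, 0 with such a p). Of 8 keratinocyte markers 7 were lower (median -0.10, 1 with such a p). Over all genes tested, 8.11% were below every control library in all ecko libraries, and DESeq2 called 0.757%. An unadjusted edgeR p under 0.05 was held by 4.10% of all genes on the lower side and 4.92% on the higher. By edgeR and limma-voom 0 markers of these 4 lists passed. Their part in the values of Ndufa4l2 was not tested.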

How the data were processed

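Ear skin RNA of 6 mouse libraries, 3 control and 3 ecko, was analysed from 1 deposited table of expected counts per gene, which the authors left unscaled between libraries. That unit was inferred, since 10.1% to 10.4% of each library's values are not exactly whole. RSEM 1.3.1, Bowtie2 2.4.5, HISAT2 2.2.1 and GRCm38.p6 are named, without their roles, in the submitters' processing notes. Neither annotation nor strand setting is given in the sources used here. Of 18404 gene identifiers, 18353 matched RefSeq for GRCm38.p6, which gave the gene coordinates. Libraries held 16987130 to 17979182 counts, and reads carry no molecular identifiers, so a count's sampling precision covers counting error only.

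Counts were rounded and tested, ecko minus control, by quasi-likelihood in edgeR 4.0.16 under R 4.3.3 (filterByExpr with a minimum count of 10, TMM scaling, robust glmQLFit). P-values are two-sided and Benjamini-Hochberg adjusted over the 14920 genes tested (threshold 0.05). SE is derived from F, as the size of the log2 fold change over its square root, and intervals are 95% and unadjusted. CPM uses TMM library sizes, and log2 CPM a prior count of 2. Lengths are merged exons of the GENCODE M21 basic annotation. No single value was tested by permutation, since 3 against 3 libraries cannot go below an exact p of 0.1. Replicate numbers were not used to pair libraries.

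Alternatives were DESeq2 1.42.0 (size factors, and its Wald test), limma-voom (limma 3.58.1), other low-count filters, a replicate block, leaving out each library or the 20 most abundant genes, no robust estimation, and the skeletal muscle marker mean as a covariate. For Ndufa4l2 against the identity genes they were also a prior count of 0.5, other identity genes and a median. Presence of Y-linked reads as a covariate, only the 4 libraries that have them, and gene lengths from all annotated transcripts were added after the data were seen. The test was tested on simulated data. Named genes are all 10 members, Kdr, a set list of companions by role, and the 5 genes most correlated with Ndufa4l2 or the identity mean, of which 1 is not reported here. Car12, Hilpda, Loxl2, Tie1, Notch4 and Apln were named after their values were seen, as the list members whose groups did not overlap, and Shmt2 and 5330439B14Rik for their overlap. The members and lists were chosen with earlier results of these data known.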

Additional observations from a re-analysis of the deposited data

How the results depend on the processing

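Over all genes, edgeR called 0 higher and 1 lower. The DESeq2 Wald test called 87 higher and 26 lower, the replicate block 88 higher and 10 lower, and a covariate for skeletal muscle 65 higher and 9 lower. The Y-linked covariate called 1 higher, and the 4 libraries with Y-linked reads 2 higher and 2 lower. Leaving out 1 library gave 0 to 2 higher (2 without ecko 3) and 1 lower. Under the DESeq2 Wald test, the replicate block and the muscle covariate 1 member was called higher, Ndufa4l2, with adjusted p of 0.000107, 0.00649 and 0.0488. In the main edgeR fit the adjusted p of Ndufa4l2 was 0.150, and by limma-voom it was 0.227. Over the alternatives that did not call Ndufa4l2 its adjusted p ran from 0.068 (no low-count filter) to 0.749, and its log2 fold change from 0.49 to 0.76. Nothing is read from these p-values, since the gene was chosen on this contrast. The numbers are not known to pair libraries: deviations of equal numbers correlated at 0.16, -0.24 and -0.07, and ecko 2 and ecko 3 correlated best with another number. The cause of these shifts in calls was not tested.

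Identity genes were called under 0 of the alternatives, but several estimates near 0 changed sign. Leaving out 1 library gave -0.046 to 0.089 for Pdgfrb, -0.090 to 0.113 for Cspg4, -0.082 to 0.063 for Notch3, -0.160 to 0.086 for Kcnj8 and -0.365 to 0.043 for Vtn, and the identity median was 0.086 without control 2. The muscle covariate gave -0.021 for Cspg4. The libraries with Y-linked reads gave 0.097 for Kcnj8, 0.087 for Vtn and 0.0029 for Rgs5. The median of the endothelial to pericyte signals ran from -0.080 (without ecko 1) to -0.0042. The gap between Ndufa4l2 and the identity mean ran from 0.38 in the 4 libraries with Y-linked reads to 0.80 without control 3, and was 0.43 without control 2. At 13 to 28 counts per library for Higd1b, the interval of its fold change reaches from under 1 to 1.96.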
